A study of Mus musculus with 6 samples.

Results

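Striated muscle builds its contractile lattice from actin thin filaments and myosin thick filaments, which are held in register by the Z-disc and the M-band and fed by creatine kinase, glycolytic and respiratory enzymes made in muscle-specific forms. The 49 genes described here were given by name as striated muscle sarcomere, Z-disc and energy genes, and they were matched by mouse NCBI gene number. All 49 were found among the 21117 genes of the table. Many of them are abundant transcripts in the heart, in skeletal muscle or in both. Several, such as the chaperone Cryab and the M-band protein Myom1, are also made by vascular smooth muscle.

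The libraries came from aortic tissue of untreated mice aged 32 weeks, 3 of them labelled wild type (WT) and 3 labelled Fbn1C1041G/+, which is heterozygous for a missense change in fibrillin-1 and serves as a mouse model of Marfan syndrome. Sex, strain, the segment of aorta and pooling of animals are not given in the labels. Poly(A) RNA was sequenced, and the values are FPKM, sequenced fragments scaled to transcript length and to the size of the library. From the spacing of low values, the WT libraries held an estimated 14300000 to 16940000 fragments and the Fbn1C1041G/+ libraries 14740000 to 17340000. The question set by the design is how gene expression in the mutant aorta departs from that of wild-type mice.

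The tissue label was borne out by smooth muscle genes, with smooth muscle actin Acta2 at 4674 to 6357 FPKM in the 6 libraries. Fat was present as well, with Ucp1 at 96.3 to 1071 FPKM. WT replicate 3 stood apart from the other 5 libraries, scoring -45.8 on principal component 2 where they scored -5.10 to 23.1. Whether the 3 samples of a group stem from separate animals is not labelled, so the tests measure the spread between these samples. In tissue RNA, fewer cells of a type and less RNA per cell cannot be told apart.

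Upstream sequences show how differently the members are built at their start sites. RefSeq promoters of assembly GRCm38.p6 held an entry for 36 of the 49 members, with 42 windows of 250 bases before a start site. Each window was searched on both strands for the MEF2 box, the CArG box bound by serum response factor, the MCAT element CATTCC and the E-box CAGCTG, and no match overlapped another. MEF2 boxes were found in 21.4% of the member windows and in 2.92% of all 32851 windows. CArG boxes were found in 14.3% and 1.47%, E-boxes in 45.2% and 13%, and MCAT elements in 23.8% and 12.6%. Windows of a gene with several start sites can overlap, so the CArG box of Ldb3 and the E-boxes of Mb and Jph2 are counted repeatedly. Shown are the 2 members called higher whose windows held a MEF2 box (Mybpc3 and Pgam2), a fast skeletal myosin with both boxes (Myh4), the striated muscle actins, and Myom1, which was abundant in every library. They were chosen with their values known. Letters run 5′ to 3′ and end at the base before the start site, and capitals mark the matches to the 4 motifs.
Mybpc3, chr2:91117894-91118143, plus strand: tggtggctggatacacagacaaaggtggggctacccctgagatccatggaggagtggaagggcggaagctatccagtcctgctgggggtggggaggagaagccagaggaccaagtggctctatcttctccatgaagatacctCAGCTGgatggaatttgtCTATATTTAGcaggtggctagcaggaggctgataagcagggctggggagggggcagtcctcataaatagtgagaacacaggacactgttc
Pgam2, chr11:5803797-5804046, minus strand: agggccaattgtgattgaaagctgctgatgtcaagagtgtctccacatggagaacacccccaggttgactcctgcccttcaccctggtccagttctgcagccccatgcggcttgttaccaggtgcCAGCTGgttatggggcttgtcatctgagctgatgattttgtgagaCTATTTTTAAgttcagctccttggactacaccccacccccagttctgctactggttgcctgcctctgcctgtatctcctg
Myh4, chr11:67237562-67237811, plus strand: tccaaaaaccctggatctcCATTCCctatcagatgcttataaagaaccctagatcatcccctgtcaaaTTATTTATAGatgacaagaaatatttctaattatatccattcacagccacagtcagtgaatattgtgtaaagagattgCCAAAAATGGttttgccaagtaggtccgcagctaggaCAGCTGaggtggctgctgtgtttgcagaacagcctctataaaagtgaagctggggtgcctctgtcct
Acta1, chr8:123894776-123895025, minus strand: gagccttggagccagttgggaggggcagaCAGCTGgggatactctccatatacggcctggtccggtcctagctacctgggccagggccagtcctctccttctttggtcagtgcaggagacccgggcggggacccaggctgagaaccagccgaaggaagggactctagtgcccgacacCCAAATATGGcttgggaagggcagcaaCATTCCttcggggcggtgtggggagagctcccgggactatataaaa
Actc1, chr2:114052876-114053125, minus strand: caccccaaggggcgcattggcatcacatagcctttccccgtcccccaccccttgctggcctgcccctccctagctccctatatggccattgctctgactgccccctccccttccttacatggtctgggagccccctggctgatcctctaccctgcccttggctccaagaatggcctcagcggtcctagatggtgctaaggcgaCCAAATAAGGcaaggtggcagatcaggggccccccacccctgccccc
Myom1, chr17:71019307-71019556, plus strand: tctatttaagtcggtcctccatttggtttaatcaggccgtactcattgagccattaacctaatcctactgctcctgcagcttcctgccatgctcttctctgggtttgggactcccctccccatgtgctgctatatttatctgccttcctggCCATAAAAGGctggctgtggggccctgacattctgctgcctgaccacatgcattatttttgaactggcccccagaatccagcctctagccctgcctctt
None of the 13 windows of members called higher held a CArG box, and 2 of them held a MEF2 box. Several of the 13 belong to Mb and Csrp3. A match is a string of letters and not a bound site.

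Of the striated muscle members tested, 11 of 32 were higher in Fbn1C1041G/+ aortas, myoglobin and a muscle cytochrome c oxidase subunit with the largest log2 fold changes among them. The calls took in 5 of 7 tested energy members, 3 of 10 at the Z-disc, 2 of 4 at the thin filament, 1 of 4 at the thick filament and none of the chaperone and triad members. The 32 are those of the 49 members that averaged at least 1 FPKM across all 6 libraries, and they were tested by limma on log2(FPKM + 1). The threshold was an adjusted p under 0.05 over all 13438 genes tested, at which no member was lower and 21 were not called. At an unadjusted p under 0.05 by limma, 17 were higher and 0 lower, where 4.86% of all tested genes were higher. Over all tested genes 5.60% were called, 0.744% as higher and 4.85% as lower. The 32 cannot stand for all members, because 12 of them had a WT mean under 1 FPKM and passed the filter only through the mutant libraries, 6 of the 12 being called. Of the 20 whose WT mean was at least 1 FPKM, 5 were called. The median log2 fold change was 1.05 for the tested members and -0.0040 for all tested genes. Just inside the filter lay Mybpc2 with a mean of 1.02 FPKM, and just outside it Myh4 with 0.995 FPKM.

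**Figure D1:**
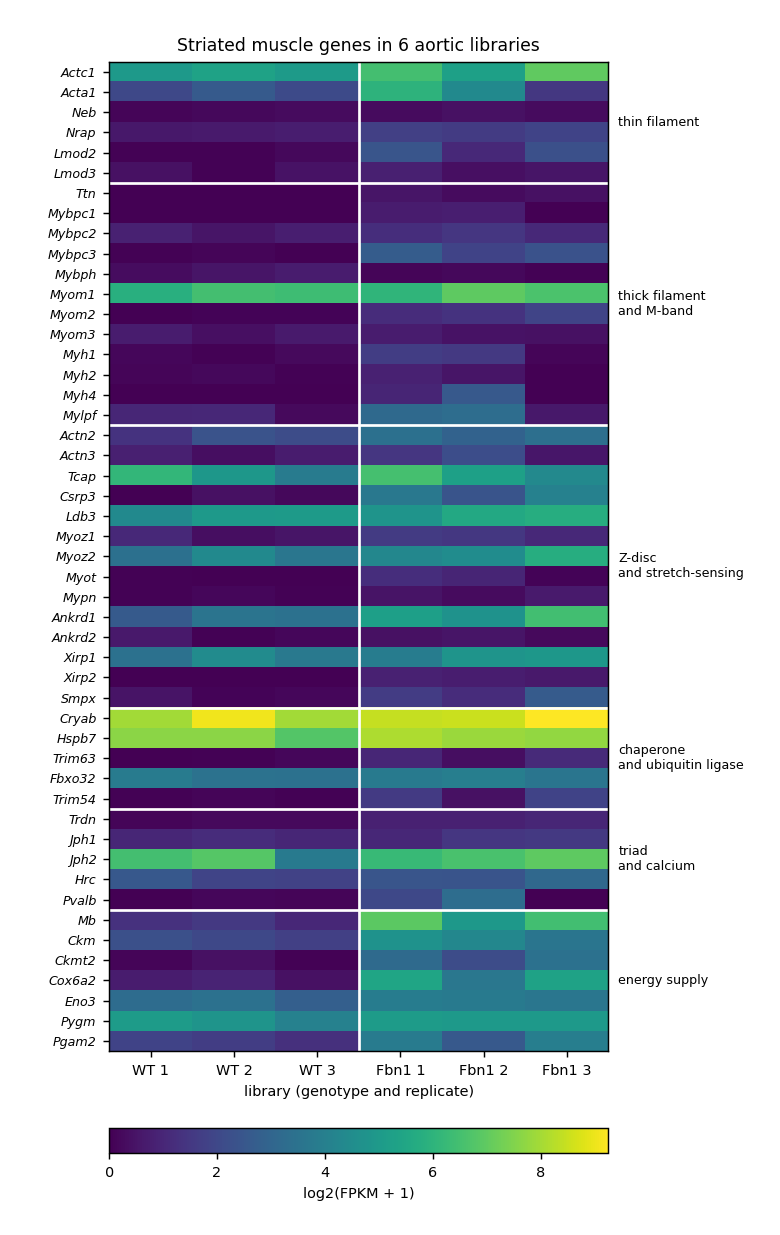
Level of each of the 49 members as log2(FPKM + 1), by colour, in 3 WT and 3 Fbn1C1041G/+ (Fbn1) libraries, with members grouped by role. Energy genes such as Mb and Cox6a2 brighten in all 3 mutant libraries, Myh1, Myh4 and Pvalb in replicates 1 and 2 of them, while Cryab, Hspb7 and Myom1 are bright in all 6.

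Genes of muscle energy supply showed the widest separation between the groups. Mb encodes myoglobin, the oxygen store of heart and oxidative muscle. It stood at 1.51, 1.88 and 1.02 FPKM in WT replicates 1 to 3 and at 121, 29.5 and 87.3 FPKM in Fbn1C1041G/+ replicates 1 to 3. The lowest mutant value lay far above the highest WT value, and the log2 fold change was 4.82 ± 0.48 (SE), with limma's adjusted p at 0.00241. Cox6a2, the heart and skeletal muscle form of a cytochrome c oxidase subunit, was at 0.65, 0.89 and 0.32 FPKM in WT and at 42.2, 11.7 and 38.8 FPKM in mutant libraries. Its groups did not overlap either, and the log2 fold change was 4.13 ± 0.46 (SE), with limma's adjusted p at 0.00300. The ratio of Mb to Cox6a2 was 2.11 to 3.19 in WT and 2.25 to 2.87 in mutant libraries. The WT values of Cox6a2 rested on about 7.3, 10.3 and 3.1 fragments, so the WT ratios are loose and cannot show a constant proportion.

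Both muscle creatine kinases, which pass phosphate between ATP and creatine, were higher. Ckm, the cytosolic form, was at 3.74, 3.04 and 2.38 FPKM in WT and at 25.4, 18.3 and 11.2 FPKM in mutant libraries, a log2 fold change of 2.20 ± 0.29 (SE), with limma's adjusted p at 0.00561. Ckmt2, the mitochondrial form of sarcomeric muscle, was at 0.08, 0.35 and 0.05 FPKM in WT and at 8.19, 3.42 and 9.95 FPKM in mutant libraries. The WT values rested on about 2.0, 8.8 and 1.1 fragments, and the log2 fold change was 2.73 ± 0.34 (SE), with limma's adjusted p at 0.00464. The 2 kinases differed in which mutant library was highest, replicate 1 for Ckm and replicate 3 for Ckmt2, and Ckm was at 0.210, 0.620 and 0.128 of the Mb level in mutant replicates 1 to 3.

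Among the 3 glycolytic and glycogenolytic members, the muscle phosphoglycerate mutase Pgam2 rose and the others were not called. Pgam2 was at 2.66, 2.24 and 1.42 FPKM in WT and at 13.5, 4.98 and 14.6 FPKM in mutant libraries (log2 fold change 1.85 ± 0.38 by SE, limma adjusted p 0.0349). The call was lost with no filter on low values and when any library other than Fbn1C1041G/+ replicate 2 was left out, the adjusted p reaching 0.129. Eno3, the muscle enolase, was at 8.66, 10.04 and 6.04 FPKM in WT and at 13.9, 12.8 and 11.5 FPKM in mutant libraries. Its groups did not overlap, yet the adjusted p was 0.177. Pygm, the muscle glycogen phosphorylase, was at 32.8, 27.0 and 15.8 FPKM in WT and at 32.6, 30.9 and 31.5 FPKM in mutant libraries (adjusted p = 0.645), with only WT replicate 3 standing low.

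**Figure D2:**
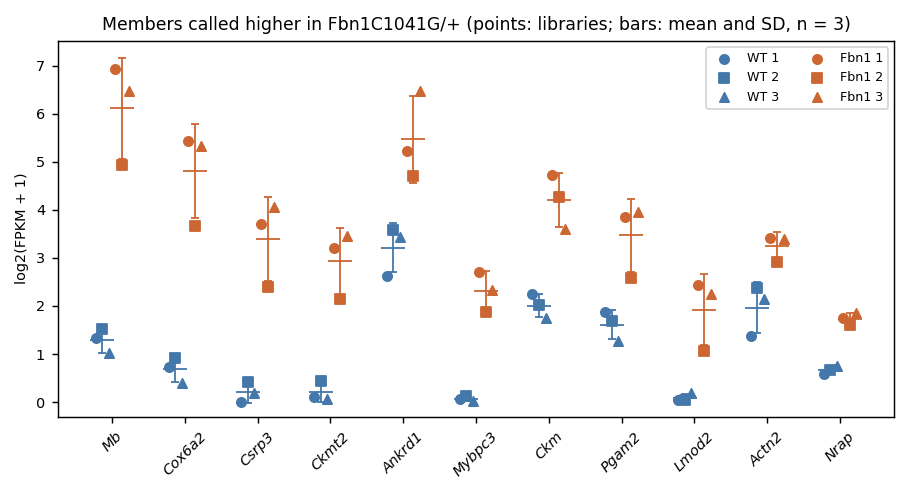
The 11 members called higher, as log2(FPKM + 1), with a point per library and bars for the mean and SD of 3 libraries on that scale. For every one of them the 3 Fbn1C1041G/+ points lie above the 3 WT points, and replicate 2 is the lowest mutant library for 10 of the 11, Ckm being the exception.

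At the thin filament, 2 of 4 tested members were called. Lmod2 encodes leiomodin 2, which controls thin filament length in heart muscle, and was at 0.03, 0.03 and 0.14 FPKM in WT and at 4.44, 1.10 and 3.78 FPKM in mutant libraries. These values correspond to about 1.0, 1.0 and 4.0 WT fragments against 152, 32.0 and 120.1 mutant fragments (log2 fold change 1.83 ± 0.35 by SE, limma adjusted p 0.0277). Leaving out WT replicate 1, WT replicate 2, Fbn1C1041G/+ replicate 1 or Fbn1C1041G/+ replicate 3 lost the call, the adjusted p reaching 0.117. Nrap, which anchors thin filaments during myofibril assembly, was at 0.51, 0.58 and 0.68 FPKM in WT and at 2.35, 2.05 and 2.61 FPKM in mutant libraries. Its mutant libraries lay close together, and at 1.07 ± 0.15 on the log2 scale (SE; limma, adjusted p 0.00770) the call held under all 16 alternatives in which it was tested.

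The 2 striated muscle actins went separate ways in the mutant libraries. Actc1, cardiac alpha-actin, was at 30.6, 39.3 and 31.8 FPKM in WT and at 89.5, 37.3 and 124.9 FPKM in mutant libraries, so that mutant replicate 2 lay inside the WT range (log2 fold change 1.13; adjusted p = 0.231). Leaving out that library, the lowest mutant one, was bound to raise the value and gave 1.62 (limma adjusted p 0.0141). Acta1, skeletal alpha-actin, was at 3.04, 5.2 and 3.24 FPKM in WT and at 62.1, 19.95 and 1.83 FPKM in mutant libraries. Replicates 1 and 2 lay above WT and replicate 3 below it (log2 fold change 1.71, limma adjusted p 0.544). Leaving out replicate 3 was likewise bound to raise the value, which became 2.94 (limma adjusted p 0.0312). Acta1 was at 0.0993 to 0.132 of the Actc1 level in WT and at 0.693, 0.535 and 0.0147 of it in mutant replicates 1 to 3. No 50-base window of the Actc1 transcript was found in another protein-coding gene, and 2.0% of those of Acta1 were, so exact read sharing with the far more abundant Acta2 was not seen at that length. Neb and Lmod3, a thin filament ruler and a second leiomodin, had means under 1 FPKM and overlapping groups.

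Of the thick filament and M-band members, Mybpc3 was called. It encodes cardiac myosin-binding protein C and was at 0.04, 0.10 and 0.02 FPKM in WT, or about 2.7, 7.1 and 1.2 fragments. In mutant libraries it was at 5.50, 2.66 and 4.05 FPKM, or about 397, 163 and 271 fragments. At 2.23 ± 0.23 on the log2 scale (SE; limma, adjusted p 0.00256) it held its call under all 16 alternatives tested. Of its skeletal relatives, Mybpc2, the fast skeletal form, was at 0.79, 0.45 and 0.73 FPKM in WT and at 1.29, 1.76 and 1.09 FPKM in mutant libraries. The groups of Mybpc2 did not overlap, and it was not called (log2 fold change 0.52; adjusted p = 0.214). The slow form Mybpc1 was at 0.61 and 0.72 FPKM in mutant replicates 1 and 2 and listed at 0 in replicate 3.

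Myom1, the M-band cross-linker myomesin 1, was the most abundant thick filament member, at 56.7, 88.8 and 82.0 FPKM in WT and at 65.5, 124.7 and 97.3 FPKM in mutant libraries. The groups overlapped (log2 fold change 0.31 ± 0.28, SE; adjusted p = 0.752). Its paralogue Myom2, named after its values were seen, was at 0.01, 0.06 and 0.06 FPKM in WT and at 1.23, 1.54 and 2.74 FPKM in mutant libraries, a mean of 0.940 FPKM that left it just under the filter. Myom3 overlapped between the groups. Mybph, a myosin-binding protein H also named after its values were seen, was the one member whose mutant values all lay below WT, at 0.23, 0.43 and 0.61 FPKM in WT and 0.08, 0.14 and 0.04 FPKM in mutant libraries, which rested on at most 15.9 fragments.

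**Figure D3:**
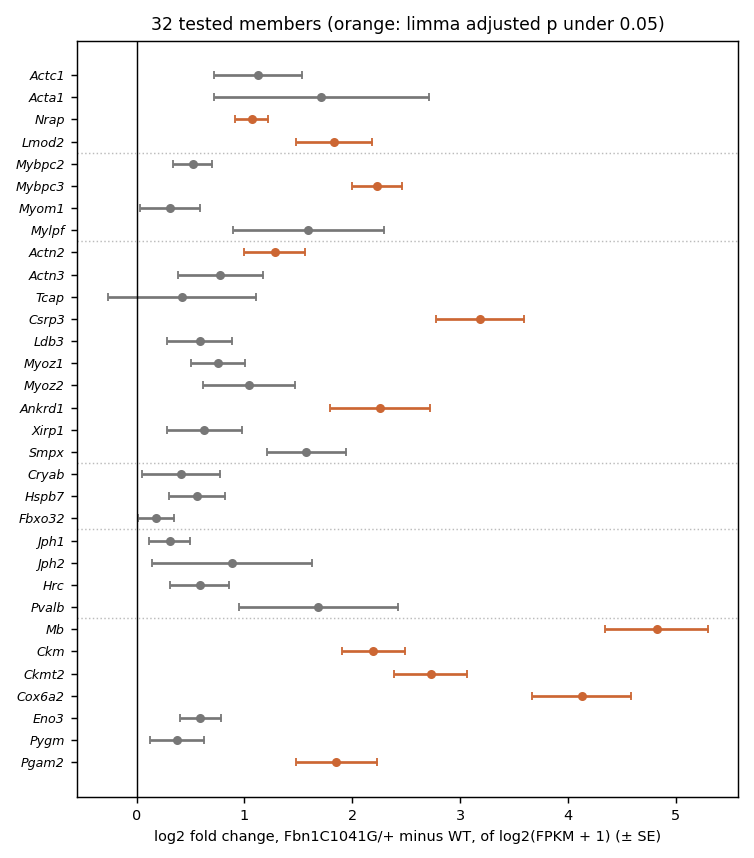
Log2 fold change (Fbn1C1041G/+ minus WT, on log2(FPKM + 1)) with its SE for the 32 tested members, in the order of their roles from thin filament at the top to energy supply at the bottom. All 32 points lie above 0, the 11 called ones are orange, and the widest bars belong to Acta1, Jph2, Pvalb, Mylpf and Tcap. Of the 32, 12 passed the filter only through the mutant libraries, which largely set their direction. Among all 13438 tested genes, 6617 lay above 0.

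In the Z-disc and stretch-sensing group 3 of 10 tested members were called. Csrp3, the muscle LIM protein of the Z-disc, was listed at 0 in WT replicate 1, at 0.34 and 0.14 FPKM in WT replicates 2 and 3, and at 12.0, 4.27 and 15.7 FPKM in mutant libraries. Its log2 fold change was 3.18 ± 0.41 (SE), with limma's adjusted p at 0.00517, and the call held under all 17 alternatives. Ankrd1, a stretch-responsive partner of titin that is also made in vessel walls, was at 5.18, 10.9 and 9.83 FPKM in WT and at 36.5, 25.2 and 87.2 FPKM in mutant libraries. The groups were well apart and the mutant libraries spread widely, and the log2 fold change was 2.25 ± 0.46 (SE), limma's adjusted p being 0.0356. This call too was lost when any of those 5 libraries was left out, the adjusted p reaching 0.113, and with no filter.

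Actn2, the alpha-actinin that cross-links actin at the cardiac and skeletal Z-disc, was at 1.59, 4.17 and 3.44 FPKM in WT and at 9.72, 6.57 and 9.53 FPKM in mutant libraries. The difference of 1.28 ± 0.28 on the log2 scale (SE; limma, adjusted p 0.0478) was the weakest call, kept under 3 of 17 alternatives, and leaving out any one library lost it (adjusted p between 0.0402 and 0.183 over the alternatives). Tcap, telethonin, which caps titin at the Z-disc, was at 68.8, 28.8 and 13.5 FPKM in WT and at 91.2, 36.8 and 19.7 FPKM in mutant libraries. Its spread within each group was wider than the difference (log2 fold change 0.42 ± 0.69, SE; adjusted p = 0.889), and the sign turned without WT replicate 3 (-0.13), without Fbn1C1041G/+ replicate 1 (-0.16) and with sample weights (-0.23). Ldb3, a PDZ-LIM protein of the Z-disc, was at 19.8, 30.9 and 31.7 FPKM in WT and at 26.5, 47.6 and 53.8 FPKM in mutant libraries, with overlapping groups (adjusted p = 0.470). Myoz2, the calsarcin of heart and slow muscle, ranged over 9.61 to 20.0 FPKM across WT and 18.6 to 53.7 FPKM across mutant libraries (adjusted p = 0.304), and Xirp1, an actin-binding Xin-repeat protein, over 9.88 to 21.2 and 13.8 to 28.4 FPKM (adjusted p = 0.513). Smpx, a small protein of striated muscle, did not overlap between the groups but missed the threshold (log2 fold change 1.57; adjusted p = 0.0579). It passed at pseudocounts of 0.1 and 0.01, with sample weights, with the replicate number as a block and without Fbn1C1041G/+ replicate 2. Under the filter were Myot and Mypn, a pair of actinin-binding Z-disc proteins whose mutant values of 0.06 to 1.32 and 0.22 to 0.57 FPKM did not overlap with WT, and Ankrd2, whose values did.

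The chaperones and ubiquitin ligases held the 2 most abundant members, and limma called none of the 3 tested, with 0 at an unadjusted p under 0.05. Cryab, alpha-B-crystallin, a small heat-shock protein that protects desmin and titin, was at 248, 534 and 249 FPKM in WT and at 346, 368 and 609 FPKM in mutant libraries. Hspb7, a small heat-shock protein of heart and vessel muscle, was at 199.9, 198 and 109 FPKM in WT and at 278, 233 and 214 FPKM in mutant libraries. Hspb7 did not overlap between the groups but had a log2 fold change of only 0.56 ± 0.26 (SE; adjusted p = 0.393), and Cryab overlapped (0.41 ± 0.36; adjusted p = 0.747). Fbxo32, the ubiquitin ligase atrogin-1, was at 13.5, 10.3 and 9.93 FPKM in WT and at 12.8, 14.4 and 11.2 FPKM in mutant libraries (adjusted p = 0.773). Trim63 and Trim54, ubiquitin ligases of the sarcomere, were at most 0.11 FPKM in WT and reached 1.14 and 2.59 FPKM in mutant libraries, with means under 1 FPKM.

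Of the triad and calcium members limma called none of the 4 tested, again with 0 at an unadjusted p under 0.05. Jph2, junctophilin 2, which ties the sarcoplasmic reticulum to the surface membrane, was at 89.5, 112 and 12.95 FPKM in WT and at 74.6, 95.4 and 122 FPKM in mutant libraries. One WT library, replicate 3, stood far below the other 5, and the log2 fold change of 0.88 became -0.069 without it. Hrc, a calcium-binding protein of the reticulum lumen, was at 4.80, 2.70 and 2.54 FPKM in WT and at 4.49, 4.32 and 7.81 FPKM in mutant libraries (adjusted p = 0.391). Jph1 overlapped between the groups, and Trdn, triadin, lay above WT in all 3 mutant libraries at 0.78 to 1.01 FPKM against 0.09 to 0.19 FPKM.

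Without a filter on low values, where 12 members were called, 4 of the 17 members under 1 FPKM were among them, and these are named here for that reason. They were the giant elastic filament Ttn (log2 fold change 0.40; adjusted p = 0.0288), Myom2 (1.41; adjusted p = 0.0132), the Xin-repeat protein Xirp2 (0.72; adjusted p = 0.00584) and Trdn (0.70; adjusted p = 0.00678), all with limma. The Ttn transcript is very long, and its FPKM of 0.22 to 0.45 in mutant and 0.01 to 0.02 in WT libraries sits near the 2-decimal rounding of the table in WT.

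**Figure D4:**
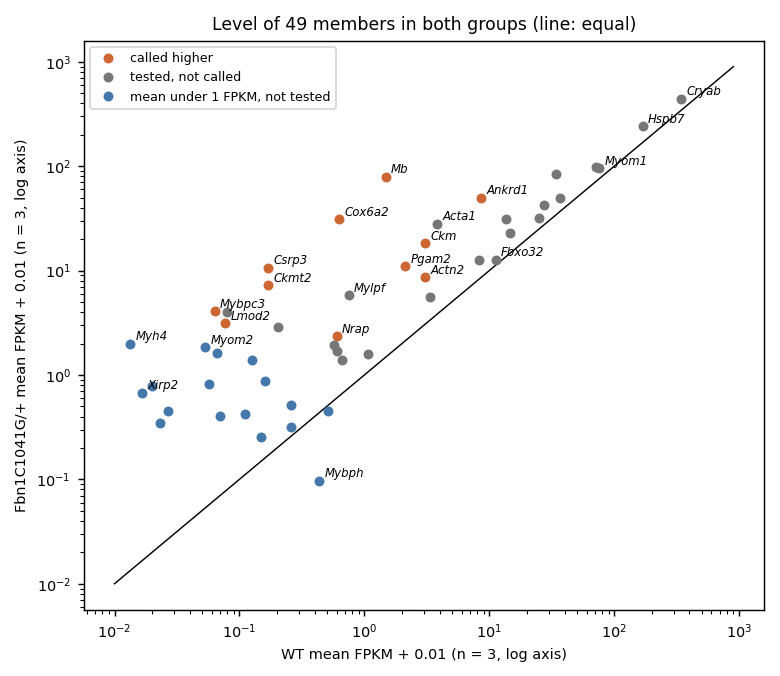
Mean FPKM of each of the 49 members in Fbn1C1041G/+ against WT libraries (n = 3 each, 0.01 added, both axes logarithmic), with a line of equal level. Cryab, Hspb7 and Myom1 lie near the line, Mb and Cox6a2 lie far above it, and Mybph lies below it.

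Together the 49 members made up 0.131% to 0.245% of the summed FPKM in WT and 0.273% to 0.363% in mutant libraries.

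The mutant libraries differed from each other in which striated muscle genes they held. All 3 mutant values lay above all WT values for 24 of 49 members, or 49%, against 6.79% of genes with any value above 0 and 6.85% of tested genes. For 8 members, or 16.3% against 3.25% of such genes, mutant replicates 1 and 2 lay above all WT values and replicate 3 did not. One member, Mybph, lay below WT in all 3, as did 11.7% of such genes, and 16 overlapped in another way. The 8 were Acta1, Mybpc1, Myh1, Myh2, Myh4, Mylpf, Actn3 and Pvalb, of which 6 are among the 8 members listed as typical of fast skeletal fibres. The summed level of that list was 2.33 to 3.81 FPKM in WT and 20.1, 32.2 and 3.27 FPKM in mutant replicates 1 to 3.

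Several genes of the fast-fibre list showed this split, while Mybpc2 and Myoz1 lay above WT in all 3 mutant libraries. Mylpf, the fast skeletal regulatory myosin light chain, was at 0.99, 1.04 and 0.19 FPKM in WT and at 8.0, 8.80 and 0.50 FPKM in mutant libraries (log2 fold change 1.59; adjusted p = 0.351). Pvalb, parvalbumin, the cytosolic calcium buffer of fast fibres, was listed at 0 in WT replicate 1, at 0.13 and 0.08 FPKM in the other WT libraries, and at 3.05, 8.98 and 0 FPKM in mutant libraries (log2 fold change 1.68; adjusted p = 0.349). Without Fbn1C1041G/+ replicate 3 both passed limma's threshold, with adjusted p of 0.0111 and 0.0235. That library held their lowest mutant values, so leaving it out was bound to raise the differences. Both also passed the filter only through the mutant libraries. The fast myosin heavy chain Myh4 reached 0.95 and 5.01 FPKM in mutant replicates 1 and 2, about 99.1 and 444 fragments, and was listed at 0 in replicate 3 and at no more than 0.01 FPKM in WT. Myh1 was at 2.19, 1.87 and 0.09 FPKM and Myh2 at 0.78, 0.43 and 0.02 FPKM in mutant libraries, against at most 0.19 FPKM in WT. Of the 50-base windows of the Myh1, Myh2 and Myh4 transcripts, 27.4%, 26.9% and 18.9% also occur in another protein-coding gene, so the division of reads among these 3 paralogues is uncertain. Actn3, the fast-fibre alpha-actinin, was at 1.78, 3.53 and 0.47 FPKM in mutant libraries where WT spanned 0.28 to 0.75 FPKM, and Myoz1, the fast-fibre calsarcin, at 2.06, 1.85 and 1.10 FPKM and at 0.27 to 1.08 FPKM.

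Several members expressed in heart muscle were high in replicate 3 as well. A list of 8 such members, which are also expressed in some skeletal fibres, was chosen with earlier results known, and 5 of them were called. Over all tested genes 0.744% were called higher. Of those called, Mybpc3, Csrp3, Lmod2 and Cox6a2 passed the filter only through the mutant libraries, which largely set their direction. Mb did not. The list leaves out other members of heart muscle, such as Actn2 and Hspb7 (log2 fold changes 1.28 and 0.56). The list summed to 47.3 to 65.2 FPKM in WT and to 298, 113 and 336 FPKM in mutant replicates 1 to 3. Its median deviation from the WT mean, on log2(FPKM + 1), was 2.49, 1.39 and 2.21 in mutant replicates 1 to 3, while that of the fast-fibre list was 0.96, 1.46 and -0.053. Replicate 2 was thus the lowest mutant library for the first list and the highest for the second. Over all members the highest mutant value came from replicate 1 in 19 cases, replicate 2 in 11 and replicate 3 in 19, in libraries of 14740000 to 17340000 fragments.

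**Figure D5:**
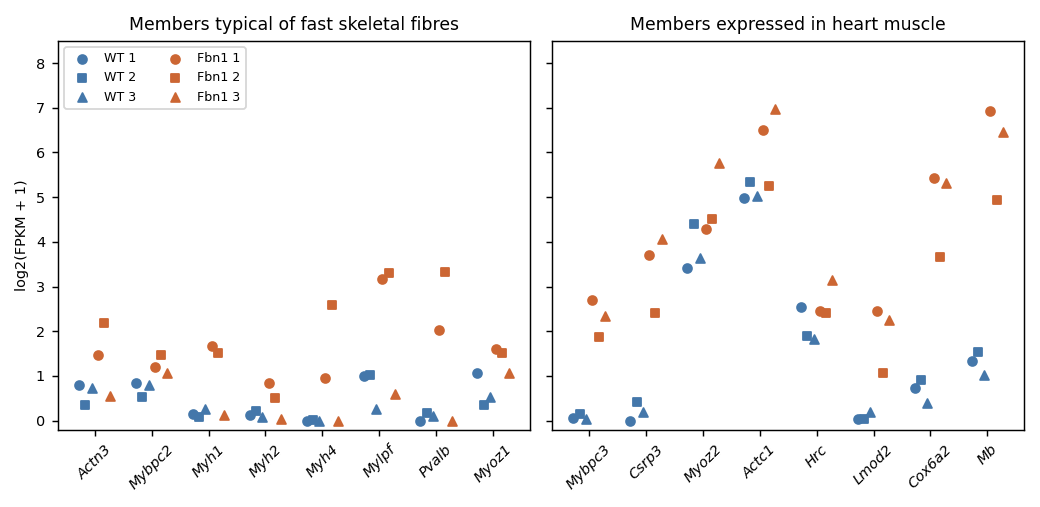
Log2(FPKM + 1) of 8 members typical of fast skeletal fibres (left) and 8 members expressed in heart muscle (right), with a point per library. On the left the orange triangles of Fbn1C1041G/+ replicate 3 lie among or near the WT points, while on the right those of Mb, Cox6a2, Csrp3, Mybpc3 and Lmod2 lie far above WT.

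Many markers of heart muscle and some of fast skeletal muscle were also high in the mutant libraries, while others were not. Of 18 heart muscle markers 15 were tested, 6 rose (Myh6, Myl3, Tnnt2, Tnni3, Tnnc1 and Pln) and none fell. Over all tested genes 0.744% were called higher and 4.85% lower. Myh6, Myh7, Myl2, Myl3 and Sln had WT means under 1 FPKM and passed the filter only through the mutant libraries. Their direction was thus largely set by the filter. The list summed to 33.1 to 51.8 FPKM in WT and to 366, 204 and 655 FPKM in mutant replicates 1 to 3. The first listed, Myh6, the atrial and adult mouse ventricular myosin heavy chain, was at 19.3, 7.04 and 40.8 FPKM in mutant libraries, with no WT library above 0.85 FPKM, while Myh7, the slow and ventricular form, was at 3.39, 6.61 and 0.19 FPKM. Myl2, the light chain of ventricle and slow skeletal fibres, was at 90.6, 33.7 and 0.81 FPKM in mutant replicates 1 to 3. The atrial light chain Myl7 was at 2.0, 3.43 and 125.7 FPKM. All 3 mutant values lay above WT for 14 of the 18 and below it for 1, Tbx20. Among genes with any value above 0 these shares were 6.79% and 11.7%. Myh7 and Myl2 are also among 6 slow skeletal fibre markers, of which 5 were tested and none was called by limma. Tnnt1 and Tnni1, the first listed of these, averaged 2.04 and 1.20 FPKM in WT and 2.72 and 0.71 FPKM in mutant libraries. Of 10 fast skeletal markers 7 were tested and Ckm alone was called. Ckm is itself one of the 49 members, so its call adds no separate result. Tnnt3 and Tnni2, the first listed, stood at 19.8, 17.8 and 1.22 FPKM and 8.04, 7.18 and 0.86 FPKM in mutant libraries. All 3 mutant values lay below WT for 3 of the 10, Myl1, Casq1 and Mymk, against 11.7% of genes with any value above 0. By limma 2 tested markers were lower at an unadjusted p under 0.05, for which the share over all genes was not counted. Casq1, the calsequestrin of fast fibres, was at 20.8, 21.6 and 14.4 FPKM in WT and at 5.70, 10.8 and 14.3 FPKM in mutant libraries (log2 fold change -0.88; limma adjusted p 0.226). Without Fbn1C1041G/+ replicate 3, 5 of the markers were called higher, the member Ckm among them. That library held the lowest mutant values of Tnnt3, Tnni2, Tnnc2 and Atp2a1 (1.22, 0.86, 0.27 and 0.33 FPKM). Leaving it out was therefore bound to raise their differences. Tnni2, Tnnc2 and Atp2a1 also passed the filter only through the mutant libraries. The myogenic factors Myod1, Myf5, Myf6 and Myog were listed at 0 in every library but Fbn1C1041G/+ replicate 1, where they reached 0.03 to 0.11 FPKM. Smooth muscle markers summed to 9330 to 10890 FPKM across WT and 10040 to 12250 FPKM across mutant libraries. Neuronal and chromaffin markers summed to 1523 to 1713 FPKM across WT and 172.7 to 314.2 FPKM across mutant libraries, with all 8 lower, and macrophage markers to 141 to 203 and 264 to 559 FPKM. The part of other cell types in the values of the members was not tested.

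Other genes of the same pathways were counted beside all tested genes, of which 0.744% were called higher and 4.85% lower. At shares this small, lists of 9 to 16 tested genes can hold no call without departing from all genes. Of 20 further Z-disc and sarcomere assembly genes 15 were tested and 1 rose, Fhl2, a LIM protein of heart and vessel muscle, from 12.1, 12.2 and 11.5 FPKM in WT to 22.6, 18.3 and 26.5 FPKM in mutant libraries (log2 fold change 0.84; limma adjusted p = 0.0276). No gene of this list was called when any library other than Fbn1C1041G/+ replicate 2 was left out, or with the replicate number as a block. The first listed, the intermediate filament gene Des and the actin cross-linker Flnc, had log2 fold changes of 0.36 and 0.997 and were not called, and the list median was 0.36. Of 18 further energy genes 16 were tested and none was called by limma, with 0 higher and 2 lower at an unadjusted p under 0.05 and a median of -0.19. At that unadjusted threshold 4.86% of all tested genes were higher. The share lower was not counted, so the numbers of lower genes here cannot be set against all genes. Fabp3, the muscle fatty acid carrier, and Cox7a1, another muscle form of a cytochrome c oxidase subunit, stood at means of 121 and 112 FPKM in WT and 117 and 101 FPKM in mutant libraries. Brown adipocyte markers, of which Cox7a1 is one, summed to 801 to 2409 FPKM across WT and 821 to 1599 FPKM across mutant libraries. Of 15 sarcolemma and triad genes 9 were tested and none was called by limma, with 2 higher and 1 lower at an unadjusted p under 0.05 and a median of 0.13. The caveolin of muscle, Cav3, had a log2 fold change of 0.13 and Cavin4 was under the filter.

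Leaving out single libraries moved the count of members called from 11 to 7 without WT replicate 1, WT replicate 2 or Fbn1C1041G/+ replicate 1, and to 8 without WT replicate 3. The calls of Mb, Cox6a2, Csrp3, Ckm, Ckmt2, Mybpc3 and Nrap held in all alternatives that could test them, with the highest adjusted p at 0.0416 for Nrap.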

How the data were processed

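The authors deposited 1 table of FPKM per gene and library, rounded to 2 decimals, per the file headers. The build was mm9, per the submitters' processing notes, while for the aligner, quantifier and annotation no name is given in the sources used here. Symbols came from RefSeq genes of GRCm38.p6 (21059 of 21117 IDs matched), so no coordinates of the authors' build are given. The columns were mapped by name, and 0 were left over.

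Genes averaging at least 1 FPKM were compared on log2(FPKM + 1), which understates the change of low genes, with limma 3.58.1 in R 4.3.3 (lmFit, eBayes with trend, 2-sided, Benjamini-Hochberg adjustment over 13438 genes, threshold 0.05). Tested first on simulated data, the fit made more false calls than the threshold allows and missed many of the smaller changes. Depth was taken as the value that put most low values of genes with 1 transcript within 0.2 of a whole fragment (68.4% to 71.2% of them, where a step fixed beforehand gives 40%), with transcript lengths from GENCODE M21, and the fragment numbers rest on it. No intervals were computed from them.

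The members and lists were chosen with earlier results of these data known. Values by library were given for members called and for the 3 highest in each role, and for fast skeletal and heart members under 1 FPKM. Of other lists the genes called and the first 2 were named. Other genes named, such as Eno3, Mybpc2, Myl2, Myl7, Casq1 and Tbx20, were chosen after their values were seen. The alternatives were pseudocounts of 0.1 and 0.01, no filter, a filter at 5 FPKM, quantile and median-ratio scaling, eBayes without trend and robust, a block for the replicate number, sample weights and leaving out each library, and GC correction (loess, span 0.3) was added after the data were examined. Figures were drawn with matplotlib 3.10.9.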

Additional observations from a re-analysis of the deposited data

How the results depend on the processing

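Over the 17 alternatives, 489 values of single members kept their direction and their side of the threshold, 30 calls were lost and 9 were gained. With a filter at a mean of 5 FPKM, which tested 20 members, 6 were called, and the counts over all genes were 33 higher and 349 lower. With sample weights these were 285 and 1011, and 2 further energy genes were lower. Without single libraries the count of members called ranged over 7 to 12, of all genes higher over 37 to 192 and lower over 389 to 751, of further Z-disc genes over 0 to 1, of sarcolemma and triad genes over 0 to 1 and of fast skeletal markers over 1 to 5. The sign of Tcap turned without WT replicate 3 (-0.13), without Fbn1C1041G/+ replicate 1 (-0.16) and with sample weights (-0.23), and that of Jph2 without WT replicate 3 (-0.069), and without single libraries they ranged over -0.16 to 1.0 and -0.069 to 1.44. The causes were not tested. With the replicate number as a block 11 members were called and no further Z-disc gene (0). Deviations of same-numbered libraries correlated at 0.26, -0.024 and 0.097, and those of differently numbered ones at -0.19 to 0.097. With 3 libraries per group, these values cannot show whether the numbers pair the samples. The main fit treated the samples as unpaired. The GC correction left 11 members called. Values under about 0.1 FPKM rested on a few fragments in most members, which limits their folds.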
